A study of Mus musculus with 12 samples.

Results

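The genes described here are 31 kinases, lipid and protein phosphatases, adaptors and targets of the PI3K, Akt and mTOR pathway, and every probe set annotated to one of them was taken on all 12 arrays of the series. The arrays carried 78 such probe sets for 30 of the 31 genes, among 45037 probe sets in all. Of these, 59 probe sets of 29 genes lay above their array's own median on at least 3 of the 12 arrays and were kept, among 23082 kept on the whole array. The 19 others were too dim to test, and both probe sets of Pik3cg were among them. Of the 59 kept, 56 lay above the median on all 12 arrays and the other 3 on 8 or 9. Rps6kb1 has no probe set in the annotation used and was not analysed here. A further 2 probe sets carried a second gene symbol beside Foxo3 or Pik3r2 and were left out.

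RNA came from whole lungs of mice aged 8 to 12 weeks, hybridised to single-colour Affymetrix arrays, in 4 groups of 3 mice: Gadd45a knockouts given ventilator-induced lung injury (KO VILI), Gadd45a knockouts labelled SB (KO SB), wild type mice given VILI (WT VILI) and wild type mice labelled SB (WT SB). For VILI the mice were ventilated for 4 h at 65 breaths per minute, each breath of 30 ml/kg. What SB stands for is not given in the labels, and the design text treats the wild type SB mice as controls. The knockout is written GADD45-/- in the sample titles and GADD-/- in other labels, the series title names Gadd45a, and how the allele was made is not given here, nor are strain and sex. The comparisons asked whether VILI changes lung expression in each genotype and whether the loss of Gadd45a, a stress-induced nuclear protein, alters the lung or its response, and the series title names Akt among the subjects of the study.

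Class I PI3K enzymes phosphorylate inositol lipids of the plasma membrane when growth factor, antigen or chemokine receptors are engaged, and Akt is recruited to these lipids and activated there. Active Akt phosphorylates FOXO factors, GSK3, BAD and the TSC complex. Release of the GTPase Rheb from TSC turns on mTOR complex 1, which promotes protein synthesis. In the lung the pathway is known for its part in endothelial barrier function, epithelial survival and leukocyte recruitment. It is governed mainly by lipid and protein phosphorylation, which arrays do not measure: all values below are transcript levels on the log2 scale, in which a difference of 1 is a 2-fold change.

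The targeted gene followed the labels: Gadd45a read 5.36 to 6.02 in KO VILI, 4.58 to 6.15 in KO SB, 9.75 to 10.33 in WT VILI and 8.62 to 9.51 in WT SB. Lung markers were present, with all 24 endothelial, all 9 type I and 9 of 10 type II epithelial genes of the marker lists measured. Within groups, pairs of arrays had a Pearson correlation of 0.961 to 0.994. Replicate 3 of KO SB and replicate 3 of KO VILI stood apart on the second principal component (23.9% of the variance), and both had the highest mean level of B cell markers and of T and NK cell markers (7.48 on replicate 3 of KO VILI and 7.18 on replicate 3 of KO SB, against 5.62 to 6.93 on the others). They are called the arrays high in B cell markers below. The 7 measured B cell markers averaged 6.70 to 10.09 in KO VILI, 6.53 to 9.64 in KO SB, 6.78 to 7.25 in WT VILI and 5.59 to 7.35 in WT SB, while Blk, Pax5, Cr2 and Vpreb3 had no probe set that passed the level filter. Called member results are also given without those arrays.

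After VILI, averaged over both genotypes, 1 probe set each of 3 pathway genes was called higher and 1 each of 3 others lower. Pik3cd and Pik3ca, catalytic subunits of PI3K, and Eif4ebp1, a translational repressor that mTOR complex 1 phosphorylates, rose. Pik3r2, a regulatory subunit of PI3K, Inppl1, a phosphatase that removes the 5-phosphate from the lipid product of PI3K, and Phlpp1, a phosphatase of Akt, fell. All but 1 of the 6 differences were below 2-fold. Pik3cd had 4 kept probe sets, Pik3ca 5 and Eif4ebp1 2, and their other kept probe sets were not called. With each single array left out, only the calls of Pik3ca and Inppl1 always held. Without both arrays high in B cell markers, only that of Pik3cd held. The 6 called were 10.2% of the 59 member probe sets, against 13.5% called among all 23082 tested (limma, Benjamini-Hochberg adjusted p below 0.05). The 3 higher ones stand against 7.66% of all probe sets called higher and the 3 lower ones against 5.83% called lower, so the members changed about as often as other probe sets did. At an unadjusted p below 0.05 the shares were 30.5% of the members and 30.7% of all. The median difference was 0.02 over the members and 0.01 over all probe sets, and the median absolute difference was 0.17 against 0.19.

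For the 3 called genes with a single annotated start, the promoter is shown because a probe set was called for VILI: Pik3ca upward, Phlpp1 and Pik3r2 downward. Each window runs from 250 bases before the RefSeq start to 50 after it (GRCm38.p6), written 5′ to 3′ on the gene's strand. Capitals mark matches, on either strand, to the motifs searched.
Pik3ca, chr3:32396815-32397114, plus strand: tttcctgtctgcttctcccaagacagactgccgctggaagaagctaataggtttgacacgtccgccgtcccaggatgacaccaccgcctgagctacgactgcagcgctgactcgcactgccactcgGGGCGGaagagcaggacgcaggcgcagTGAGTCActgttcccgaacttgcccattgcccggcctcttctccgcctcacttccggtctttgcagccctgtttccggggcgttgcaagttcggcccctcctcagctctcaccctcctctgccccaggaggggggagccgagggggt
Phlpp1, chr1:106171619-106171918, plus strand: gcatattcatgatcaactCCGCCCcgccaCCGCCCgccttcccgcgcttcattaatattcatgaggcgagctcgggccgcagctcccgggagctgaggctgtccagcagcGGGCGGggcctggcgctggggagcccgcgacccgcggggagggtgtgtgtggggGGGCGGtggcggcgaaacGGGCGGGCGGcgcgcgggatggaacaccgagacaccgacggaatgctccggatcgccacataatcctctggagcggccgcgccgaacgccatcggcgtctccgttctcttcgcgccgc
Pik3r2, chr8:70776663-70776962, minus strand: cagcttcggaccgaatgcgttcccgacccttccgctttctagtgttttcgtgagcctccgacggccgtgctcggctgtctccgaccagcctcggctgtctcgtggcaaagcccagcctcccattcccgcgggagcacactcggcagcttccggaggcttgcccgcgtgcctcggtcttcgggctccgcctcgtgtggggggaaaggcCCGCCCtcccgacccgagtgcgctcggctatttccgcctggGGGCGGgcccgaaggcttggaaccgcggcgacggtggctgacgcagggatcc
The motifs were the AP-1 site TGANTCA, found in 7.81% of 32851 RefSeq promoter windows of this length, the cyclic AMP response element TGACGTCA (1.79%), the FOXO site GTAAACA (3.65%), the E-box CACGTG (7.15%), the GC box GGGCGG (35.7%) and CCAAT (37.4%). The Pik3ca window held 1 AP-1 site, whose first base lies at -97 from the start, and 1 GC box at -124. The Phlpp1 window held 6 GC boxes, of which a pair overlaps, and the Pik3r2 window held 2. The AP-1, cyclic AMP, FOXO and E-box letters were in none of the windows of Phlpp1, Pik3r2, Inppl1 (2 windows) or Pik3cd (3 windows). A window was at hand for 30 of the 31 genes and 5 of the 6 called, all but Eif4ebp1. A match describes letters only, and binding was not measured.

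**Figure D1:**
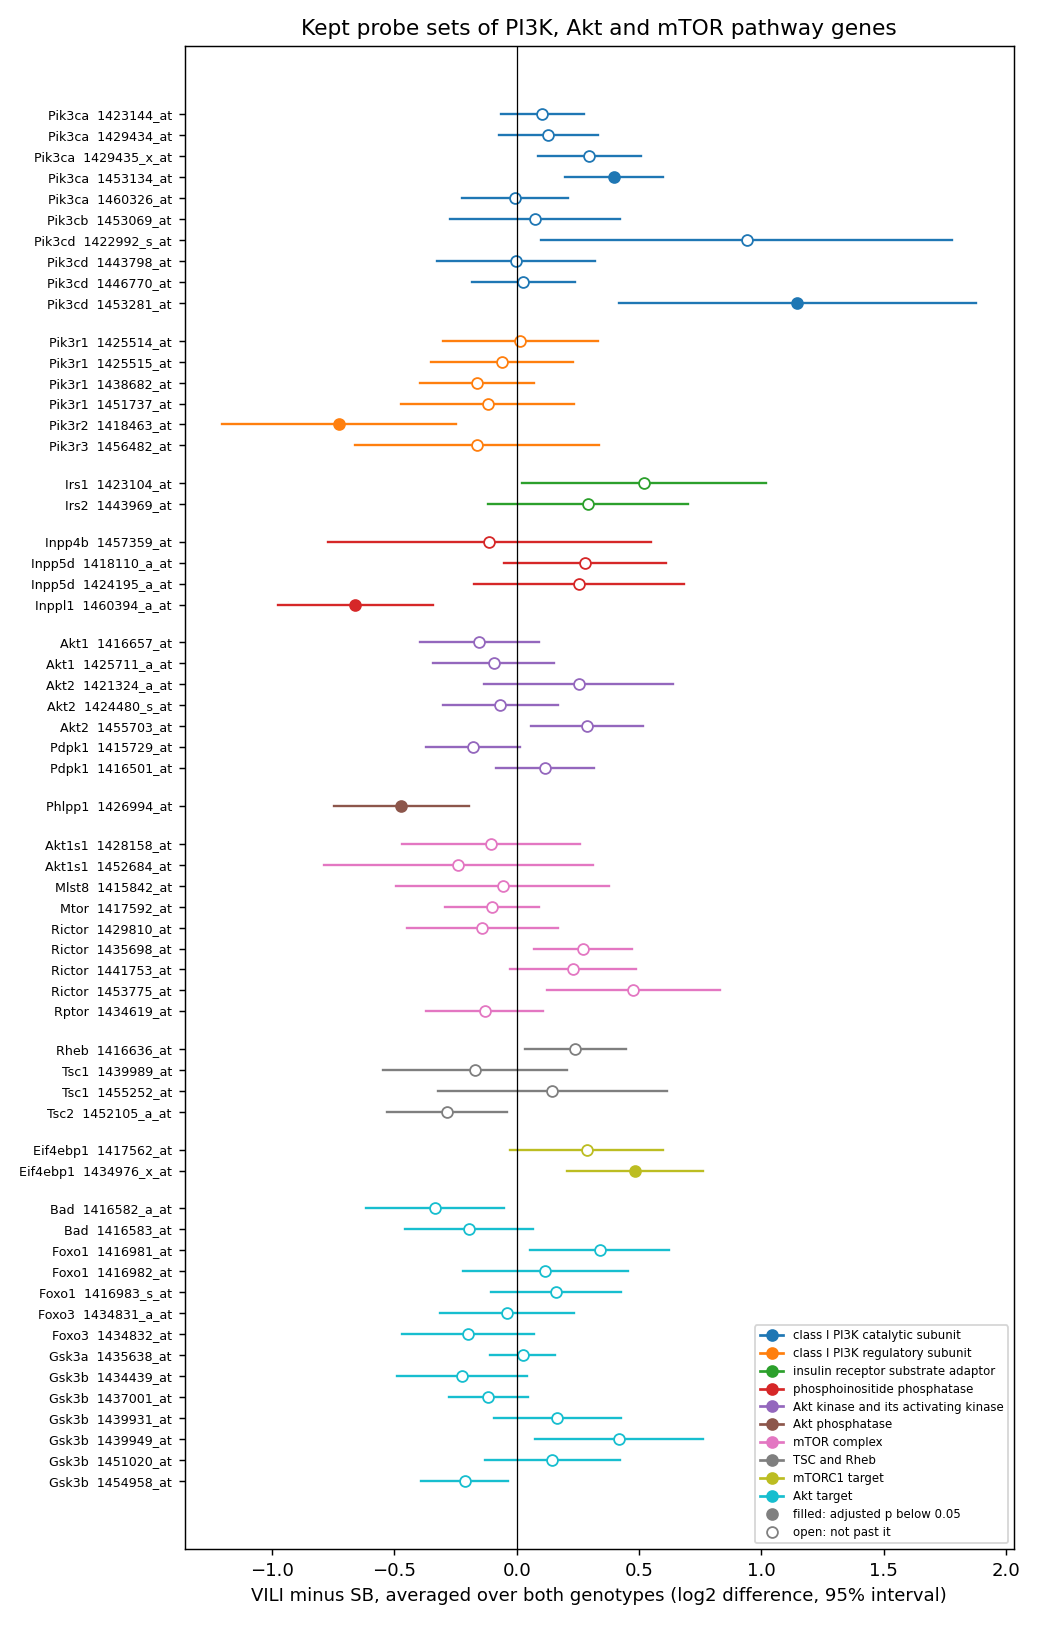
Difference between VILI and SB averaged over both genotypes (log2, horizontal axis) for each of the 59 kept probe sets, grouped by role, with 95% intervals as lines and filled points where the adjusted p was below 0.05. The points spread from -0.73 (Pik3r2) to 1.15 (Pik3cd 1453281_at), 30 of them above 0 and 29 below, and probe sets of 1 gene often lie on different sides of 0.

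Among the kept probe sets of the catalytic subunits of PI3K, the largest rise was that of Pik3cd, the delta isoform known mainly from leukocytes. Its probe set 1453281_at read 7.74, 7.53 and 8.81 in KO VILI, 6.79, 5.87 and 7.75 in KO SB, 7.14, 7.49 and 7.08 in WT VILI and 6.75, 5.53 and 6.21 in WT SB. All 3 WT VILI arrays lay above all 3 WT SB arrays, whereas replicate 3 of KO SB exceeded 2 of the KO VILI arrays. The averaged difference was 1.15 (SE 0.33, 95% interval 0.42 to 1.88, 2.22-fold, adjusted p = 0.0436, limma), and without the 2 arrays high in B cell markers it was 1.19 (adjusted p = 0.0246). Leaving out any 1 of 10 arrays, all but replicate 1 of WT SB and replicate 3 of KO SB, ended the call with adjusted p up to 0.0998 and differences of 0.91 to 1.27.

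The other Pik3cd probe sets did not give the same picture. Probe set 1422992_s_at, dimmer and more scattered, read 5.10, 5.81 and 6.43 in KO VILI, 5.06, 4.66 and 5.78 in KO SB, 5.07, 5.97 and 3.75 in WT VILI and 3.81, 3.01 and 4.17 in WT SB. The groups overlapped, and the averaged VILI difference of 0.94 (SE 0.38) did not pass (adjusted p = 0.122). Probe sets 1443798_at and 1446770_at differed by -0.00 and 0.03, with intervals of -0.33 to 0.32 and -0.18 to 0.24. The latter read 4.77 to 5.04 on all arrays, near the array medians of 4.37 to 4.59, so its small difference says little. A further 2 probe sets of Pik3cd were too dim to keep.

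Pik3ca, the widely expressed alpha isoform, had the tightest rise. Probe set 1453134_at read 11.16, 11.19 and 11.20 in KO VILI, 10.99, 10.55 and 10.62 in KO SB, 11.23, 11.03 and 11.43 in WT VILI and 10.87, 10.85 and 10.97 in WT SB. All 6 VILI arrays lay above all 6 SB arrays. The difference was 0.40 (SE 0.09, 95% interval 0.20 to 0.60, 1.32-fold, adjusted p = 0.0182, limma), and the call held with each single array left out but not without both arrays high in B cell markers (0.37, adjusted p = 0.0541). The 4 other kept probe sets of Pik3ca differed by 0.30 (1429435_x_at, adjusted p = 0.0634), 0.13, 0.10 and -0.01.

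Pik3cb, the beta isoform, differed by 0.07 after VILI (95% interval -0.27 to 0.42). Pik3cg, the gamma isoform of myeloid and lymphoid cells, stayed below the level filter on nearly all arrays. Its probe set 1422707_at read 3.68, 3.98 and 6.88 in KO VILI, 3.26, 2.37 and 4.10 in KO SB, 3.69, 3.26 and 3.01 in WT VILI and 2.79, 2.50 and 2.52 in WT SB. Replicate 3 of KO VILI was the single array above its median, in this and in the second probe set.

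Among the regulatory subunits, Pik3r2 fell while Pik3r1, the main regulatory subunit, did not change detectably. Pik3r2 (1418463_at) read 5.69, 5.51 and 4.91 in KO VILI, 6.15, 5.20 and 6.38 in KO SB, 5.19, 5.08 and 5.71 in WT VILI and 6.20, 6.24 and 6.28 in WT SB. The wild type groups did not overlap, and replicate 2 of KO SB lay among the KO VILI values. The averaged difference was -0.73 (SE 0.22, 95% interval -1.20 to -0.25, 0.604-fold, adjusted p = 0.0486, limma). It was -0.49 without both arrays high in B cell markers (adjusted p = 0.141), and leaving out any 1 of 9 arrays ended the call (adjusted p up to 0.113), the exceptions being replicate 2 of KO SB, replicate 3 of WT VILI and replicate 1 of KO VILI. The 4 kept Pik3r1 probe sets differed by -0.16 to 0.02, and Pik3r3 by -0.16 (95% interval -0.66 to 0.33).

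Among the lipid phosphatases, Inppl1 gave the call with the smallest adjusted p of all members. It read 6.57, 7.16 and 6.57 in KO VILI, 7.39, 7.25 and 7.49 in KO SB, 6.85, 6.52 and 7.19 in WT VILI and 7.59, 7.61 and 7.48 in WT SB. All 6 VILI arrays lay below all 6 SB arrays. The difference was -0.66 (SE 0.14, 95% interval -0.98 to -0.34, 0.633-fold, adjusted p = 0.0155, limma), called with each single array left out, and -0.58 without both arrays high in B cell markers (adjusted p = 0.0515). The related phosphatase Inpp5d, which is found mainly in blood cells, differed by 0.28 and 0.25 in its 2 probe sets (adjusted p = 0.238 and 0.411), and Inpp4b by -0.11 (95% interval -0.77 to 0.55).

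Phlpp1, which removes a phosphate from Akt, fell. It read 9.95, 9.45 and 9.50 in KO VILI, 9.95, 10.07 and 10.24 in KO SB, 9.57, 9.61 and 9.52 in WT VILI and 9.83, 9.90 and 10.45 in WT SB. Replicate 1 of KO VILI lay at the level of the SB arrays, and the other 5 VILI arrays lay below all of them. The difference was -0.47 (SE 0.13, 95% interval -0.75 to -0.20, 0.721-fold, adjusted p = 0.0321, limma). It was -0.40 without both arrays high in B cell markers (adjusted p = 0.10). Leaving out replicate 3 of WT SB, replicates 2 or 3 of KO SB, any replicate of WT VILI, or replicates 2 or 3 of KO VILI also ended the call, with adjusted p of 0.0517 to 0.0755.

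The transcripts of Akt itself and of its activating kinase did not pass the test. Akt1 (1416657_at) read 11.001, 10.67 and 10.81 in KO VILI, 10.67, 10.82 and 11.24 in KO SB, 10.68, 10.90 and 11.08 in WT VILI and 10.999, 11.18 and 11.15 in WT SB. Its averaged VILI difference was -0.15 (95% interval -0.39 to 0.09). Its second probe set, 1425711_a_at, read 9.11, 9.14 and 8.69 in KO VILI, 9.05, 9.17 and 9.39 in KO SB, 9.07, 9.31 and 8.99 in WT VILI and 8.90, 9.25 and 9.10 in WT SB, a difference of -0.09 (95% interval -0.34 to 0.15). In both, the groups overlapped.

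Akt2, the isoform best known for insulin action, had 3 kept probe sets that did not run together. Probe set 1421324_a_at read 7.62, 7.82 and 6.85 in KO VILI, 7.52, 7.43 and 7.12 in KO SB, 8.04, 7.73 and 7.44 in WT VILI and 7.11, 7.41 and 7.39 in WT SB (difference 0.25, 95% interval -0.13 to 0.64). Probe set 1424480_s_at read 8.96, 8.72 and 8.85 in KO VILI, 8.59, 8.87 and 9.005 in KO SB, 8.94, 8.98 and 9.11 in WT VILI and 8.98, 9.44 and 9.08 in WT SB (difference -0.07, 95% interval -0.30 to 0.17). The dimmest, 1455703_at, read 4.65, 4.70 and 4.63 in KO VILI, 4.35, 4.64 and 4.25 in KO SB, 4.85, 4.95 and 4.90 in WT VILI and 4.62, 4.64 and 4.44 in WT SB. The WT VILI arrays of this last one lay above all others, yet its difference of 0.29 (95% interval 0.06 to 0.52) did not pass (adjusted p = 0.0871). Pdpk1, the kinase that activates Akt, differed by -0.18 and 0.11 in its 2 probe sets.

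Of the mTOR complexes, no kept probe set passed. Mtor (1417592_at), the kinase shared by both complexes, read 8.34, 8.50 and 8.47 in KO VILI, 8.81, 8.50 and 8.52 in KO SB, 8.53, 8.44 and 8.32 in WT VILI and 8.41, 8.40 and 8.55 in WT SB. All 12 arrays lay between 8.32 and 8.81, and the VILI difference was -0.10 (95% interval -0.29 to 0.09). Rptor, the scaffold of complex 1, differed by -0.13, Mlst8, common to both complexes, by -0.06, and Akt1s1, an inhibitor of complex 1 that Akt phosphorylates, by -0.10 and -0.24. Rictor, the scaffold of complex 2, had 4 kept probe sets at -0.14, 0.23, 0.27 and 0.48, with adjusted p of 0.0687 or more. Upstream of complex 1, Rheb differed by 0.24 (adjusted p = 0.109), its inhibitor Tsc2 by -0.28 (adjusted p = 0.111) and Tsc1, the partner of Tsc2, by -0.17 and 0.15.

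Eif4ebp1 rose in 1 of its 2 kept probe sets. Probe set 1434976_x_at read 8.98, 9.71 and 9.28 in KO VILI, 8.90, 8.65 and 8.65 in KO SB, 9.26, 9.11 and 9.11 in WT VILI and 8.98, 8.56 and 8.81 in WT SB. The lowest VILI array and the highest SB array both read 8.98 to 2 decimals, and no SB array exceeded a VILI array. The difference was 0.48 (SE 0.13, 95% interval 0.21 to 0.76, 1.40-fold, adjusted p = 0.0305, limma). It was 0.47 without both arrays high in B cell markers (adjusted p = 0.0742). Leaving out replicates 2 or 3 of WT SB, replicates 2 or 3 of KO SB, any replicate of WT VILI or replicate 2 of KO VILI ended the call, with adjusted p of 0.0524 to 0.0702. The other kept probe set, 1417562_at, differed by 0.29 (SE 0.14, adjusted p = 0.199).

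The Akt targets and the insulin receptor substrate adaptors gave no call. Foxo1, a transcription factor that Akt holds out of the nucleus, differed by 0.34, 0.16 and 0.12 in its 3 probe sets (smallest adjusted p 0.102), and Foxo3 by -0.04 and -0.20. Bad, a pro-apoptotic protein that Akt inactivates, differed by -0.33 and -0.20 (smallest adjusted p 0.104). Gsk3a, a kinase inhibited by Akt, was the steadiest at 0.02 (95% interval -0.11 to 0.16), while the 6 probe sets of Gsk3b ran from -0.22 to 0.42. Irs1 and Irs2, adaptors that link insulin and IGF receptors to PI3K, differed by 0.52 (adjusted p = 0.148) and 0.29 (adjusted p = 0.315).

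**Figure D2:**
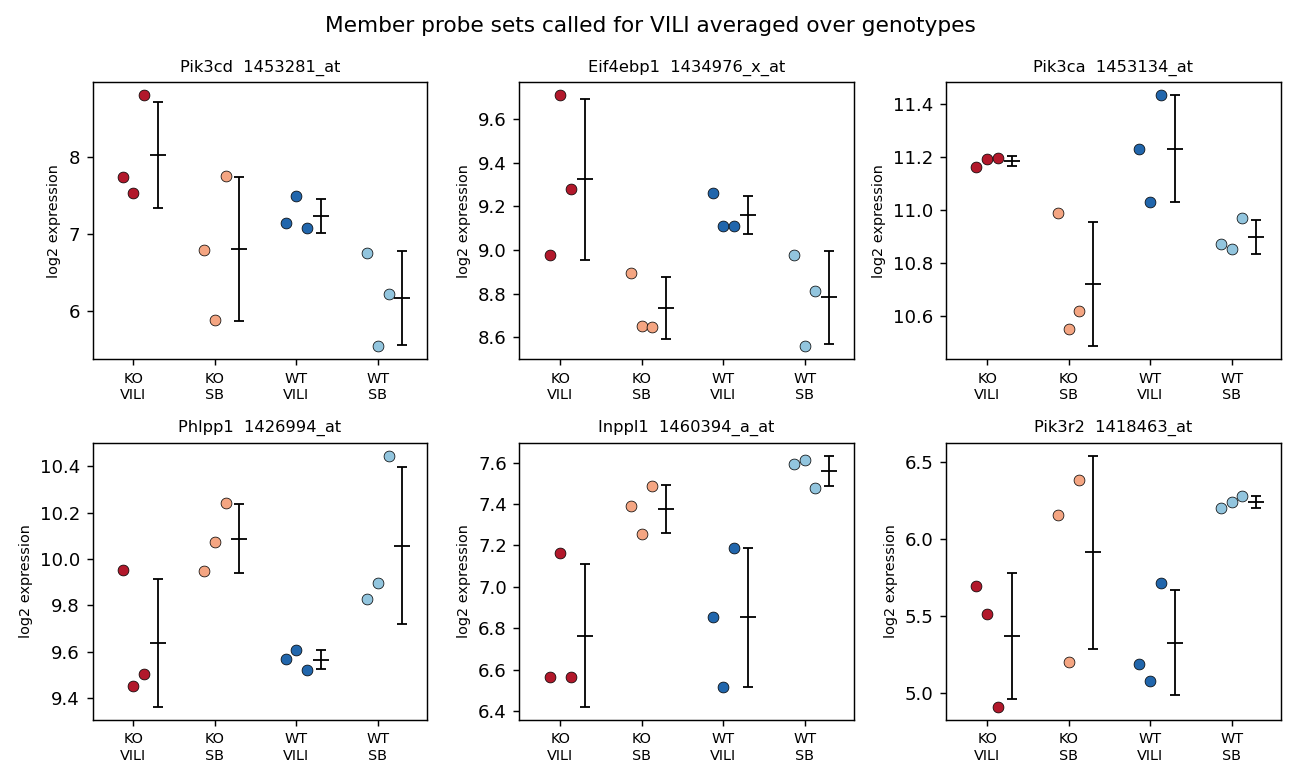
Log2 expression on every array (points, 3 mice per group) for the 6 member probe sets called for VILI averaged over genotypes, with mean and SD beside each group. All 6 VILI arrays lie above all 6 SB arrays for Pik3ca and below them for Inppl1, whereas single arrays cross in Pik3cd, Pik3r2 and Phlpp1.

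Of the 29 genes, 15 had several kept probe sets, and in 7 of these all probe sets had the same sign in the averaged VILI contrast. No gene had more than 1 called probe set, and 6 of 29 genes had 1. Over the 59 probe sets, the 6 VILI arrays and the 6 SB arrays did not overlap in 3 (5.08%), Pik3ca and Eif4ebp1 above and Inppl1 below, against 6.95% of all kept probe sets. For 55 of the 59 the 95% interval lay inside 1 log2 unit either way.

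Within a single genotype no member passed. In knockout mice limma called 0 of 59 probe sets for VILI, against 2.47% of all probe sets, and 7 members (11.9%) had an unadjusted p below 0.05, against 19.4% of all. In wild type mice it called 0, against 1.62%, and 13 members (22.0%) had an unadjusted p below 0.05, against 19.4%. The 6 probe sets called for the average had the same sign in both genotypes. Calling by the average favours this, so it adds no separate evidence. Pik3cd differed by 1.22 in the knockouts and 1.07 in wild type, Pik3ca by 0.46 in the knockouts and 0.33 in wild type, and Eif4ebp1 by 0.59 in the knockouts and 0.38 in wild type. Pik3r2 differed by -0.54 in the knockouts and -0.91 in wild type, Inppl1 by -0.61 in the knockouts and -0.71 in wild type, and Phlpp1 by -0.45 in the knockouts and -0.49 in wild type. The smallest adjusted p was 0.0870 in the knockouts (Pik3ca 1453134_at) and 0.0774 in wild type (Rictor 1453775_at). Across the 59 probe sets the sign was the same in both genotypes in 72.9%, as in 72.2% of all kept probe sets.

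**Figure D3:**
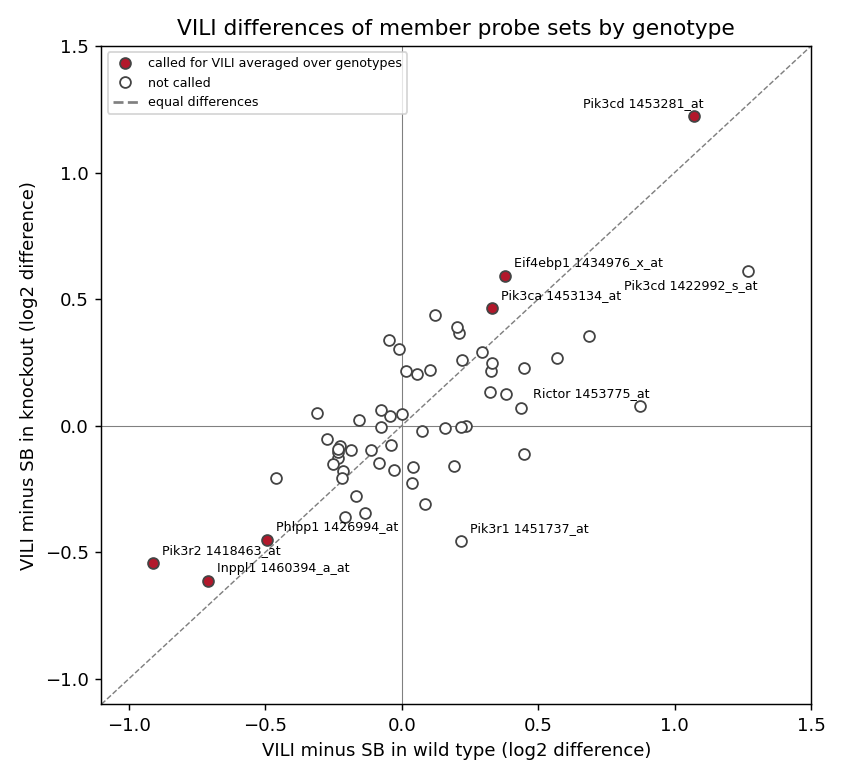
VILI minus SB in knockout (vertical, log2) against VILI minus SB in wild type (horizontal, log2) for the 59 kept member probe sets; filled points were called for the average and the dashed line marks equal differences. Of the 6 called probe sets, Pik3r2 lies farthest from the line, at -0.54 in knockout and -0.91 in wild type. Rictor 1453775_at lies farthest below the line of all members, at 0.08 in knockout and 0.87 in wild type.

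No member showed a genotype-dependent VILI response that passed the test. The interaction, the VILI difference in knockouts minus that in wild type, was called for 0 of 59 members, against 0% of all probe sets, and 2 members (3.39%) had an unadjusted p below 0.05, against 3.11% of all. The largest was Rictor 1453775_at, which read 6.81, 6.99 and 6.51 in KO VILI, 6.66, 6.95 and 6.47 in KO SB, 7.08, 6.56 and 6.35 in WT VILI and 6.01, 5.86 and 5.50 in WT SB. The WT SB arrays lay below all 9 others. The interaction was -0.80 (SE 0.32, 95% interval -1.50 to -0.09, adjusted p = 1.0), made of VILI differences of 0.08 in knockouts and 0.87 in wild type, and the other 3 Rictor probe sets did not give a wild type SB group that stood apart in this way.

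Pik3r1 1451737_at followed, with 7.13, 6.85 and 7.15 in KO VILI, 7.64, 7.50 and 7.34 in KO SB, 7.48, 7.13 and 6.89 in WT VILI and 7.30, 6.45 and 7.10 in WT SB. Its interaction was -0.67 (SE 0.32, 95% interval -1.38 to 0.04). The KO SB arrays were higher than the KO VILI arrays, while the wild type groups overlapped. Pik3cd 1422992_s_at, given above, had an interaction of -0.66 with a wide interval (-2.34 to 1.02). For Akt1 1416657_at and Mtor the interaction was 0.15 (95% interval -0.34 to 0.63) and -0.15 (95% interval -0.53 to 0.24).

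The knockout itself moved no member past the threshold. After VILI limma called 0 of 59, against 0.0996% of all probe sets, and 2 members (3.39%) had an unadjusted p below 0.05, against 5.98%. Under SB 0 were called, against 0.0996%, with 5 members (8.47%) below an unadjusted 0.05, against 10.6%. Averaged over treatments 0 were called, against 0.39%, with 8 members (13.6%) below an unadjusted 0.05, against 13.3%. The averaged knockout differences with the smallest p were 0.50 for Rictor 1453775_at (SE 0.16, adjusted p = 0.229), -0.50 for Pik3cb (SE 0.16, adjusted p = 0.231) and 1.18 for Pik3cd 1422992_s_at (SE 0.38, adjusted p = 0.235). For Akt1 1416657_at the averaged knockout difference was -0.13 (95% interval -0.37 to 0.11), for Akt2 1424480_s_at -0.26 (95% interval -0.49 to -0.02, adjusted p = 0.336) and for Mtor 0.08 (95% interval -0.11 to 0.28).

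Members known mainly from leukocytes lay beside a shift in neutrophil markers. Of 15 neutrophil markers 13 were measured, and their mean was 8.95 to 10.35 in KO VILI, 6.85 to 7.30 in KO SB, 8.70 to 9.50 in WT VILI and 6.42 to 6.80 in WT SB. After VILI 11 of the 13 were called higher, against 7.66% of all probe sets. Retnlg and Camp were not measured. Of the other leukocyte lists, 1 of 11 macrophage and monocyte markers was called higher, near the 7.66% of all probe sets. For averaged VILI limma called 0 of 8 T and NK cell and 0 of 7 B cell markers, against 13.5% of all. An unadjusted p below 0.05 was reached by 0 of either list. Endothelial markers moved the other way, with a mean over 24 genes of 10.71 to 11.18 in KO VILI, 11.42 to 11.55 in KO SB, 11.04 to 11.15 in WT VILI and 11.38 to 11.55 in WT SB. After VILI 11 of 24 were called lower, against 5.83% of all probe sets. The part of these cells in the Pik3cd, Pik3r5, Inppl1, Phlpp1 and other results was not tested. In whole lung RNA, fewer cells of a type and less RNA per cell cannot be told apart.

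Inpp5d was highest on an array with high B, T and NK cell markers. Probe set 1418110_a_at read 8.96, 9.02 and 9.84 in KO VILI, 8.84, 8.81 and 8.87 in KO SB, 8.74, 8.75 and 8.75 in WT VILI and 8.93, 8.39 and 8.55 in WT SB. Replicate 3 of KO VILI stood above the other 11 arrays. The other array high in these markers, replicate 3 of KO SB, did not stand out at 8.87. Probe set 1424195_a_at read 7.43, 7.88 and 8.36 in KO VILI, 7.67, 7.69 and 7.94 in KO SB, 7.73, 7.60 and 7.27 in WT VILI and 7.73, 6.94 and 6.78 in WT SB. Here replicate 3 of KO VILI was on top and replicate 3 of KO SB came next. The averaged knockout differences were 0.37 and 0.49 (adjusted p = 0.326 and 0.320). The highest Pik3cd 1453281_at and Pik3cg values were on replicate 3 of KO VILI as well.

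**Figure D4:**
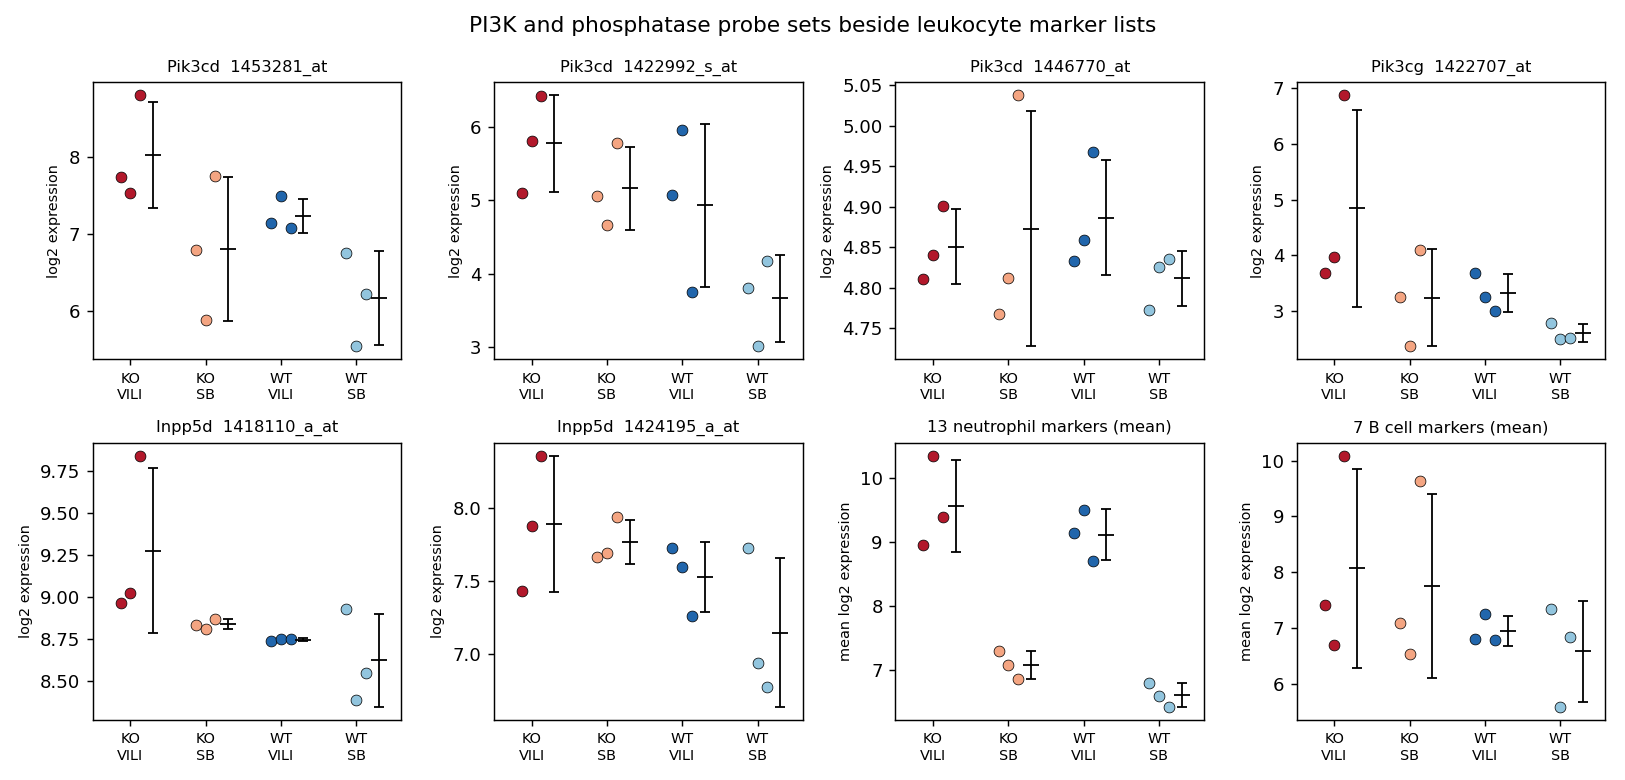
Log2 expression on every array (points, 3 mice per group, mean and SD beside them) for probe sets of Pik3cd, Pik3cg and Inpp5d, with the mean of 13 neutrophil and of 7 B cell markers in the last panels. Replicate 3 of KO VILI is highest for Pik3cd 1453281_at, Pik3cg and Inpp5d and has a B cell marker mean of 10.09, while the neutrophil mean separates all VILI from all SB arrays.

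Other genes of the pathway were described from a list of 76, of which 66 genes with 122 probe sets were kept. After VILI, averaged over genotypes, 4 probe sets of 3 genes were called higher and 11 probe sets of 10 genes lower, which is 12.3% against 13.5% of all. Of these genes, Pik3r5, a regulatory subunit of the gamma PI3K in leukocytes, rose most. It read 6.09, 6.70 and 7.06 in KO VILI, 5.50, 4.64 and 5.62 in KO SB, 6.11, 6.41 and 5.90 in WT VILI and 5.34, 4.90 and 4.38 in WT SB. All 6 VILI arrays exceeded all 6 SB arrays, with a difference of 1.31 (SE 0.24, 2.49-fold, adjusted p = 0.00671, limma) and 1.29 without both arrays high in B cell markers (adjusted p = 0.0160).

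Sesn1, a stress-induced inhibitor of mTOR complex 1, rose by 0.56 and 0.59 in 2 of its 4 kept probe sets (adjusted p = 0.0118 and 0.0221). The 2 others differed by 0.41 and 0.42 (adjusted p = 0.143 and 0.384). Castor1, an arginine sensor that restrains this complex, read 8.08, 7.55 and 7.64 in KO VILI, 8.39, 8.45 and 8.15 in KO SB, 7.77, 7.49 and 7.91 in WT VILI and 8.59, 8.48 and 8.24 in WT SB. It fell by 0.64 (SE 0.13, adjusted p = 0.00995), and all VILI arrays lay below all SB arrays. Ddit4, an inhibitor induced by hypoxia and glucocorticoids, read 10.67, 10.51 and 11.19 in KO VILI, 11.21, 11.60 and 11.23 in KO SB, 10.47, 10.40 and 10.42 in WT VILI and 10.83, 11.24 and 10.93 in WT SB, and fell by 0.56 (SE 0.12, adjusted p = 0.0156). Nprl2, part of an amino acid sensing complex, fell by 0.48 (adjusted p = 0.0427), as did Prkaa2, a catalytic subunit of the energy sensor AMPK, by 0.45 in 1 of its 2 kept probe sets (adjusted p = 0.0360).

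Of the remaining called genes, Ppp2r2a, a regulatory subunit of protein phosphatase 2A, rose by 0.50 in 1 of its 3 kept probe sets (1453260_a_at, adjusted p = 0.0193), while the others differed by 0.06 and 0.14. The lipid phosphatases Inpp5k, Synj2 and Inpp5e fell by 0.42, 0.39 and 0.47 in 1 probe set each (adjusted p = 0.0149, 0.0458 and 0.0473), and their other kept probe sets, with differences of -0.57 to -0.17, did not pass. Rhebl1, a relative of Rheb, fell by 0.66 and 0.64 in both called probe sets (adjusted p = 0.0196 and 0.0402), the translation factor Eif4b by 0.29 in 1 of its 3 kept probe sets (adjusted p = 0.0321) and 1 probe set of Igf1r, the IGF1 receptor, by 0.54 (adjusted p = 0.0467). Both Rhebl1 probe sets are dim, at 4.14 to 4.42 and 4.05 to 4.51 in WT VILI, so their differences are approximate. The other kept Igf1r probe sets were not called. Of these, 1426565_at read 8.03 to 8.23 on all arrays, while 1428967_at and 1452982_at had lower means under VILI than under SB in both genotypes. Of the 13 genes called for averaged VILI, Pik3r5, Castor1, Sesn1 1438931_s_at, Inpp5k, Ddit4 and Ppp2r2a were called under all alternatives run on them. Without both arrays high in B cell markers the differences were -0.66 for Castor1, 0.48 for Sesn1 1438931_s_at, -0.42 for Inpp5k, -0.69 for Ddit4 and 0.63 for Ppp2r2a 1453260_a_at, with adjusted p of 0.00790 to 0.0415. Rhebl1 1447818_x_at lost its call without replicate 2 of WT VILI (adjusted p = 0.0542), and Sesn1 1454699_at without replicate 1 of WT VILI (0.0525) or without both arrays high in B cell markers (0.0530). The called probe sets of Eif4b, Igf1r, Inpp5e, Nprl2, Prkaa2 and Synj2 and the second of Rhebl1 lost theirs without both of those arrays and under most ways of leaving out 1 array, with adjusted p up to 0.113.

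Of these 66 genes and the members, Pik3ap1 alone was called between genotypes. It is an adaptor that couples B cell and Toll-like receptors to PI3K. It read 8.91, 8.29 and 10.34 in KO VILI, 9.11, 9.15 and 9.49 in KO SB, 4.79, 5.39 and 3.67 in WT VILI and 5.68, 4.62 and 4.94 in WT SB. All 6 knockout arrays lay well above all 6 wild type arrays. The wild type arrays read 3.67 to 5.68, near the array medians of 4.37 to 4.59, so the size of the knockout differences is approximate. Strain is not given, and the cause of these differences was not tested. The averaged knockout difference was 4.36 (SE 0.37, 20.6-fold, adjusted p = 0.000206, limma), with 4.56 after VILI (adjusted p = 0.00390) and 4.17 under SB (adjusted p = 0.00830), while VILI made a difference of -0.26 (adjusted p = 0.667). Without both arrays high in B cell markers the averaged difference was 4.01 (adjusted p = 0.000957). The SB difference lost its call without replicate 2 or 3 of WT SB or replicate 1 or 2 of KO SB (adjusted p of 0.0503 to 0.0603), at differences of 3.94 to 4.24. The difference after VILI lost its call in a fit of the 2 groups alone (adjusted p = 0.153). A second Pik3ap1 probe set, 1421285_at, was too dim to keep, at 1.95 to 3.40 on all arrays. In the 122 probe sets this was the 1 call (0.82%) in each genotype contrast, against 0.0996%, 0.0996% and 0.39% of all probe sets after VILI, under SB and averaged.

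**Figure D5:**
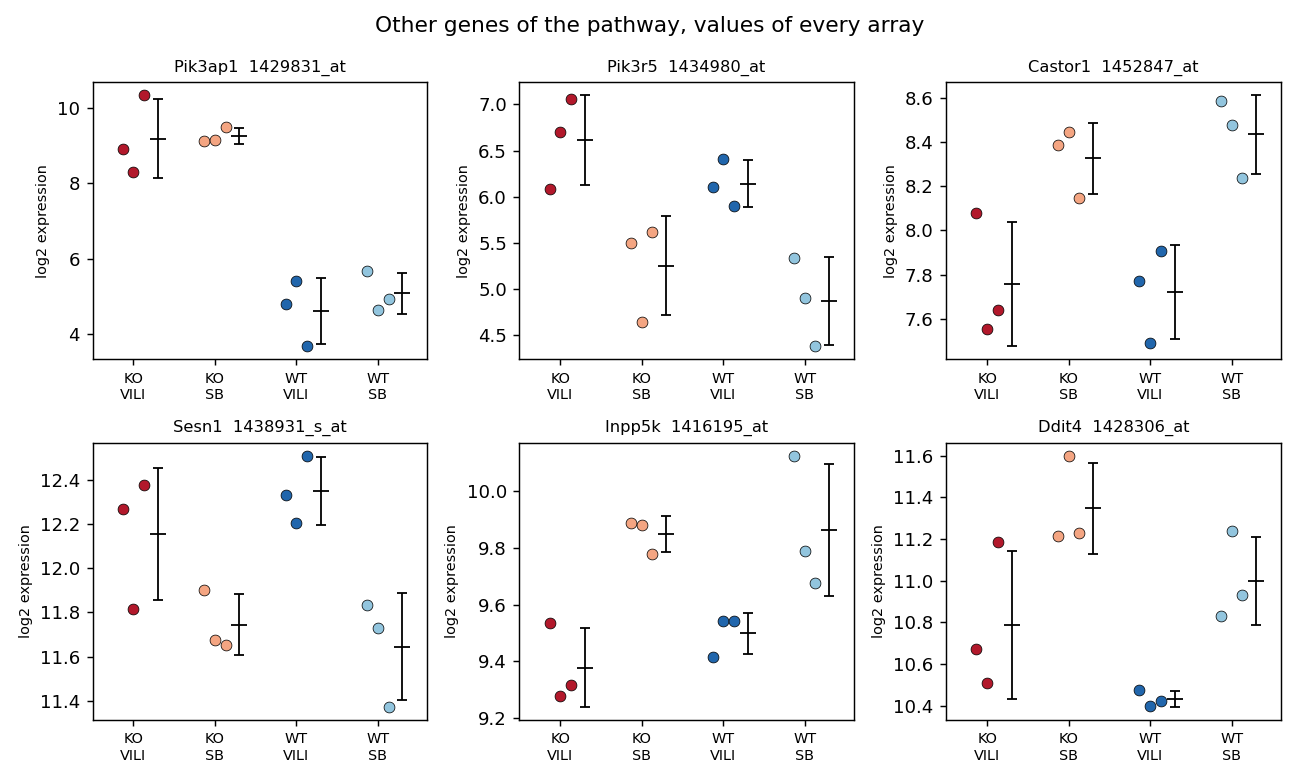
Log2 expression on every array (points, 3 mice per group, mean and SD beside them) for 6 other genes of the pathway with the smallest adjusted p. Pik3ap1 separates all knockout from all wild type arrays, whereas Pik3r5 and Sesn1 are higher and Castor1, Ddit4 and Inpp5k lower after VILI.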

How the data were processed

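The deposited values were log2 expression per probe set, already normalized by the authors. Per the submitters' processing notes MAS5 and GCRMA were used, without order or version. From these values, the 64 control probe sets were removed and a probe set was kept when it exceeded its array's median on at least 3 arrays. Array medians ran from 4.37 to 4.59. The number of arrays limits the precision, and detection calls were not used. Symbols came from the platform annotation (34945 probe sets with 1 symbol, 932 with several, 9160 with none), and 34741 matched RefSeq (GRCm38.p6), which also gave the promoters.

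limma 3.58.1 in R 4.3.3 fitted 4 group means to the 12 arrays and moderated the variance with its trend on mean level. Tables were read with data.table, version 1.17.8. Contrasts (7) were VILI minus SB in each genotype, knockout minus wild type in each treatment, their interaction and both averages. Tests were two-sided, adjusted over 23082 probe sets by Benjamini-Hochberg at 0.05, and tested on simulated data. The series design gives 3 mice per group, so arrays were taken as separate animals.

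Members in which a probe set was called, Akt1, Akt2, Mtor and the 3 largest interactions were described in full, and other pathway genes were named when called. Pik3cg, Inpp5d and further members given on every array were chosen after their values were seen. The members and lists, including cell markers for endothelium, neutrophils, B cells, T or NK cells, macrophages or monocytes, type I and II epithelium, and fibroblasts and smooth muscle, were chosen with earlier results of these data known. Alternatives were: no filter, array medians set equal, quantile normalization, no trend, 1 probe set per gene, only the arrays of the contrast, a replicate block, and leaving out each array or both arrays high in B cell markers.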

Additional observations from a re-analysis of the deposited data

How the results depend on the processing

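For VILI averaged over genotypes, the 6 member calls became 4 without the filter, of which 2 (Pik3ca and Inppl1) were shared and the others were dim Pik3cd probe sets with differences of about 0.01. They became 6 with medians set equal or quantile normalization, 7 without the trend, 5 with 1 probe set per gene, 1 (Pik3cd) without both arrays high in B cell markers, and 2 to 7 with 1 array left out. Fewer arrays were tested in these last fits, and otherwise the cause was not tested. For VILI in knockouts the count was 0 to 1 with 1 array left out, the 1 being Eif4ebp1 1434976_x_at without replicate 1 of KO VILI (0.76, adjusted p = 0.0412), and 0 in the other settings. In wild type it was 0 in all settings but the replicate block, which called Rictor 1453775_at (1 probe set, 0.87, adjusted p = 0.0303). The knockout contrasts and the interaction gave 0 member calls in all settings run. No called difference changed sign. Of 407 uncalled member differences, 9 were called under 1 setting or another and 165 changed sign somewhere.

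Of same-numbered arrays of different groups, 11 of 18 pairs had residuals correlated above 0.1 (range -0.09 to 0.48) and 8 of 12 arrays correlated best with their own number, a hint from the data and not from the design. Since 7 of the 18 pairs were not above 0.1 and the labels name nothing shared, the numbers were not taken to pair the animals. With the replicate block 7 member probe sets were called for averaged VILI, the added one being Rictor 1453775_at (0.48, adjusted p = 0.0284), and 3997 of all, against 3113.

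Over all probe sets, averaged VILI gave 1767 higher and 1346 lower calls, but 1262 higher and 1483 lower with medians set equal and 1490 higher and 1761 lower with quantile normalization. It gave 1958 with 1 probe set per gene and 1540 to 3267 with 1 array left out. VILI in knockouts gave 570, against 203 without the filter, 359 with medians set equal, 59 without both arrays high in B cell markers, 0 in a fit of the 2 groups alone and 55 to 856 with 1 array left out. VILI in wild type gave 373, against 80 without the filter, 856 with the block, 994 without both arrays and 34 to 681 with 1 left out. Averaged knockout gave 90, against 49 without the filter, 50 with 1 probe set per gene and 47 to 250 with 1 left out. Knockout after VILI gave 23, against 11 with 1 probe set per gene and 15 to 62 with 1 left out, and knockout under SB gave 23, against 12 with 1 probe set per gene, 39 without both arrays and 14 in a fit of the 2 groups. The interaction gave 0 to 1.

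With 3 mice a group, 95% intervals of the averaged VILI difference spanned 0 for 41 of 59 members. Akt2 1455703_at and Inpp4b lie near the array median, and Pik3cg lies below it on 11 of 12 arrays. Pik3cd 1422992_s_at lies above it on only 8 of 12 arrays, with the WT SB arrays at 3.01 to 4.17. Differences of such dim probe sets are approximate.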

Other observations

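The remaining marker lists had fewer calls for averaged VILI than the neutrophil and endothelial lists. The mean of 11 macrophage and monocyte markers was 8.85 to 9.84 in KO VILI, 8.96 to 9.41 in KO SB, 8.87 to 9.84 in WT VILI and 8.94 to 9.04 in WT SB, with 1 called higher after VILI, against 7.66% of all probe sets. The mean of 8 T and NK cell markers was 6.25 to 7.48 in KO VILI, 6.48 to 7.18 in KO SB, 6.05 to 6.61 in WT VILI and 5.62 to 6.25 in WT SB, with 0 called by limma in the averaged contrasts, and Cd3e, Cd4, Cd8a, Cd8b1, Cd5, Lck and Ncr1 not measured. Of the 9 type II and 9 type I epithelial markers measured, 2 of each were called lower after VILI. So were 2 of 12 fibroblast and smooth muscle markers, against 5.83% of all probe sets called lower. An unadjusted p below 0.05 (limma) was reached by 5 type II, 4 type I and 4 fibroblast and smooth muscle markers, against 30.7% of all. For the averaged knockout contrast 2 of the 12 fibroblast and smooth muscle markers were called, against 0.39% of all probe sets. Without the level filter, Pik3cg 1422707_at differed by 1.16 after VILI (adjusted p = 0.178) and by 1.08 with the knockout (adjusted p = 0.180), both averaged and neither past the threshold.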
